A study of Mus musculus with 2 samples.

Results

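The report describes 10 genes of the elastic fibre, chosen by symbol among the 31053 genes listed in the counts: Eln, Fbn1, Fbln1, Fbln2, Fbln5, Mfap4, Mfap5, Emilin1, Lox and Ltbp4. All 10 symbols were found once in both libraries. RNA of single cells of the aortic arch was counted in 1 library per diet, and each library came from 2 pooled aortas of male Apoe-/- mice on a C57BL/6 background, 16 weeks of age. The control group (ND) ate chow and the Western diet group (HFD) ate a high-fat, high-cholesterol food from weaning on. Both groups carry the Apoe deletion, which raises plasma cholesterol already on chow, so the ND library is not a wild-type control. With 1 library per diet no difference between diets could be tested, and a difference between libraries cannot be told apart from a difference between the pooled mice.

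Elastic fibres give the wall of large arteries its recoil. Their core is elastin, the product of Eln, which cells secrete as a soluble monomer and which lysyl oxidases such as Lox cross-link into an insoluble polymer. The core is laid down on microfibrils of fibrillin, the product of Fbn1, to which the small glycoproteins of Mfap5 and Mfap4 bind. Fibulins (Fbln1, Fbln2, Fbln5), Emilin1 and Ltbp4 lie between microfibrils and core or guide the assembly, and several of these proteins also hold growth factors of the TGF-beta family in the matrix. In the aorta, elastin is laid down mostly before adulthood, by smooth muscle cells of the media and also by endothelial cells and adventitial fibroblasts.

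After the filters 5416 ND cells and 2739 HFD cells were kept, with 27137322 and 17191279 UMIs (unique molecular identifiers, 1 per counted RNA molecule) and medians of 3732.5 and 5336 UMIs per cell. Before filtering the ND counts list 10234 barcodes and the HFD counts 14225. The numbers of kept cells equal those that the study states. Its medians per cell do not go the same way, since it states fewer reads and transcripts for HFD than for control cells. The median share of mitochondrial UMIs was 16.8% in ND and 21.9% in HFD cells. Both libraries share 39 barcodes, of which 1 was kept in both. A cell was assigned to a class by the number of that class's 6 markers with a UMI, and none of the 10 genes was a marker. The class names end in "-like" for this reason. There were 2430 endothelial-like ND cells and 1244 such HFD cells, with 970 and 407 fibroblast-like, 377 and 518 macrophage-like, and 22 and 7 smooth muscle-like cells. Another 646 ND cells and 464 HFD cells stayed unassigned, among them 44 and 27 cells with at least 3 markers of both the endothelial and the smooth muscle list, so the wall's main elastin-forming cell is represented by few cells. Cardiomyocyte-like cells were not found.

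Within the fibroblast-like class, sets were formed by Pi16 and Dpp4 (Pi16 set, 460 ND and 267 HFD cells), by Inmt and Gdf10 (Inmt set, 137 and 53 cells) and by Fmod and Wisp2 (Fmod set, 88 and 7 cells). Within the endothelial-like class, a luminal set was formed by Cytl1 and Vcam1 (232 and 107 cells) and a capillary set by Gpihbp1 and Rgcc (2059 and 1094 cells). Vwf, an endothelial gene not used in the gates, was at 1519 CPM (UMIs per 1000000 UMIs of the same cells) in ND and 1570.3 CPM in HFD luminal-set cells. The capillary set had 19.96 and 7.43 CPM. In an arteriolar set, formed by Stc1 and Sema3g, Vwf was at 240 CPM in 17 ND and 1450 CPM in 4 HFD cells. Endothelial-like cells of no set had 514 and 421 CPM. Vwf thus sets luminal-set cells apart from capillary-set cells but does not place them at the lumen. T cell-like and B cell-like cells, which are not known to make elastic fibres, served as background for RNA from outside the cell. In the ND library Eln was at 29.8 CPM in T cell-like and 35.0 CPM in B cell-like cells, and a single cell held 70.8% and 32.1% of these UMIs. The HFD library had only 33 and 17 such cells, and all 29 Fbn1 UMIs of its T cell-like cells came from 1 cell. All intervals are exact at 95% and cover counting error only, not the spread between mice.

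In the ND library, 9 of the 10 genes had their highest level in fibroblast-like cells among the 10 classes with at least 20 cells. Eln was at 1788 CPM (1746 to 1830) in fibroblast-like cells and 1658 CPM (1456 to 1881) in smooth muscle-like cells, so these neighbours in the order did not differ beyond counting error. Endothelial-like cells followed at 341 CPM and mesothelial-like cells at 285 CPM, again with overlapping intervals. Emilin1, which sits between the elastin core and the microfibrils, was the gene with its highest level elsewhere, at 95.9 CPM (52.4 to 161) in smooth muscle-like and 77.4 CPM (68.9 to 86.6) in fibroblast-like cells. The microfibril genes were the most clearly set to fibroblast-like cells. Fbn1 was at 1167 CPM there and at 95.9 CPM in the next class, smooth muscle-like cells. Mfap5 was at 1849 CPM in fibroblast-like cells, against 277 CPM in Schwann-like cells, the next class. Mfap4 was at 736 CPM in fibroblast-like cells and at most at 8.97 CPM in any other ND class, the level of B cell-like cells.

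Among the linking and cross-linking genes, Fbln1 was at 1086 CPM in ND fibroblast-like cells, 647 CPM in mesothelial-like cells and 6.22 CPM in endothelial-like cells. Fbln2 was at 625 CPM in fibroblast-like, 203 CPM in mesothelial-like and 176 CPM in endothelial-like cells. Fbln5, a fibulin that binds both elastin and cell surface integrins, was at 605 CPM in fibroblast-like, 349 CPM in smooth muscle-like, 236 CPM in Schwann-like and 171 CPM in endothelial-like cells. Lox was at 223 CPM in fibroblast-like cells and at 97.0 CPM or less in each other ND class. Ltbp4, which binds latent TGF-beta and Fbln5, was at 1662 CPM in fibroblast-like, 660 CPM in endothelial-like and 622 CPM in mesothelial-like cells. ND T cell-like cells were at 43.4 CPM or less for each of the 10 genes, Ltbp4 being the highest.

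The order of the classes was another in the HFD library, where 5 classes had at least 20 cells. Fibroblast-like cells had the highest level for 6 of the 10 genes, mesothelial-like cells for 3 and endothelial-like cells for 1, which was Eln. Under the alternative settings given below, the number for fibroblast-like cells ran from 6 to 9 in HFD and from 8 to 10 in ND. The order in the HFD library therefore depends on the setting. Eln was at 789.8 CPM (770.3 to 809.7) in HFD endothelial-like cells, followed by 192 CPM (173 to 213) in fibroblast-like and 167 CPM (104 to 256) in mesothelial-like cells, which did not differ from each other beyond counting error. Fbln1 was at 860 CPM in mesothelial-like cells and 512 CPM in fibroblast-like cells, with intervals apart. Fbln2 was at 581 and 450 CPM in these classes and Ltbp4 at 924 and 869.8 CPM, both with overlapping intervals. Among whole classes, Fbn1, Mfap5, Mfap4, Fbln5, Lox and Emilin1 had the highest level in fibroblast-like cells in both libraries, apart from the Emilin1 order given above. This order holds for classes only, since a set within the endothelial-like class lay above fibroblast-like cells for some genes, as given next.

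Within the endothelial-like class most of these genes were higher in the luminal than in the capillary set, the only sets of over 100 cells. In ND cells Eln was at 1938 CPM (1877 to 2001) in the luminal set and 21.8 CPM (19.0 to 25.0) in the capillary set, which lies below the level of B cell-like cells. The luminal-set level of Eln is above that of the ND fibroblast-like cells as a whole, and the intervals do not overlap. Ltbp4 was at 2353 CPM in the luminal and 268 CPM in the capillary set, Fbln5 at 786 and 30.6 CPM, Fbln2 at 699 and 63.7 CPM, Lox at 188 and 1.76 CPM, and Emilin1 at 116 and 30.0 CPM. ND fibroblast-like cells had less Ltbp4 (1662 CPM), Fbln5 (605 CPM), Fbln2 (625 CPM) and Emilin1 (77.4 CPM) than the luminal set. They had more Lox, Fbn1, Mfap5, Mfap4 and Fbln1. In HFD cells Eln, Ltbp4, Fbln5, Fbln2 and Emilin1 were also higher in the luminal set than in fibroblast-like cells, and Lox was near the same level. Mfap4 and Fbln1 had 2 and 11 UMIs in ND luminal-set cells, or 1.02 and 5.61 CPM. The luminal set therefore carried UMIs of elastin, of the cross-linking gene and of Fbln2, Fbln5 and Ltbp4 with little Mfap4 and Fbln1.

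**Figure D1:**
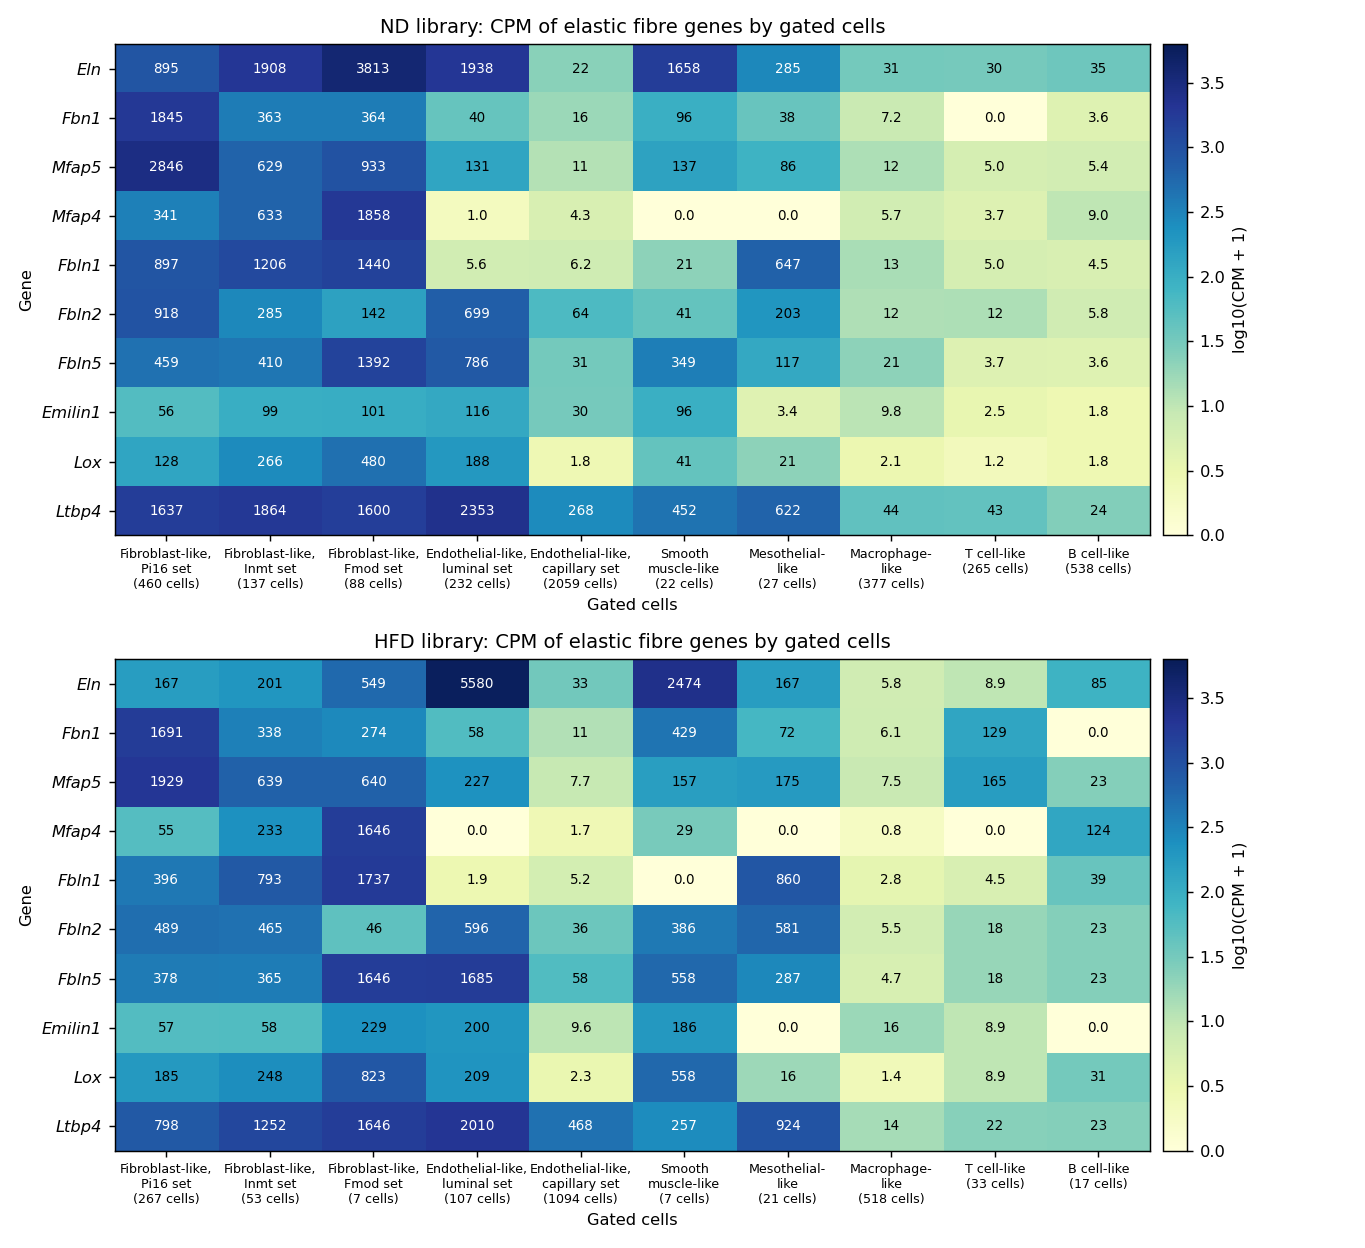
CPM of the 10 genes (rows) in 10 groups of gated cells (columns) of the ND library (top) and the HFD library (bottom), with the CPM printed in each field and the shade on a log10(CPM + 1) scale. Eln is at 1938 CPM in ND and 5580 CPM in HFD luminal-set cells, but at 895 and 167 CPM in Pi16-set fibroblast-like cells.

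The fibroblast-like sets differed from each other in these genes. In ND cells Eln was at 895 CPM in the Pi16 set, 1908 CPM in the Inmt set and 3813 CPM in the Fmod set, with intervals apart. Mfap4 followed the same order, at 341, 633 and 1858 CPM, and Lox as well, at 128, 266 and 480 CPM. Fbn1 took the opposite course, at 1845 CPM in the Pi16 set against 363 CPM in the Inmt and 364 CPM in the Fmod set. Mfap5 and Fbln2 were also highest in the Pi16 set, at 2846 and 918 CPM. The core gene and the fibrillin gene thus had their highest levels in different sets of fibroblast-like cells. Across 939 ND fibroblast-like cells thinned to 1000 UMIs each, Spearman's rho was 0.52 for Eln with Mfap4, 0.37 for Fbn1 with Mfap5 and -0.11 for Eln with Fbn1, as medians of 20 draws. In 407 HFD fibroblast-like cells rho was 0.36 for Fbn1 with Mfap5, while Eln and Mfap4 were counted in too few thinned cells. These values describe cells of 1 library each and carry no test.

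Fibroblast-like cells of the HFD library had far less Eln than those of the ND library. Its level was 1788 CPM in ND and 192 CPM (173 to 213) in HFD cells, a log2 ratio of HFD over ND of -3.22 (-3.38 to -3.06), or 9.31-fold lower. In order of this ratio Eln was number 23 from the lowest of 6595 genes with at least 100 UMIs in these cells of both libraries together. Mfap4 was at 736 and 135 CPM, a log2 ratio of -2.45 (-2.64 to -2.26). Fbln1 was at 1086 and 512 CPM (log2 ratio -1.09), Ltbp4 at 1662 and 870 CPM (-0.93) and Fbln5 at 605 and 379 CPM (-0.67). These 5 genes were lower by at least 1.5-fold and none of the 10 was higher by as much. Over all 6595 genes 13.1% were lower and 3.97% higher by that measure, and the median log2 ratio was -0.57 over the 10 genes against -0.16 over all.

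The other 5 genes lay within 1.5-fold in fibroblast-like cells. Fbn1 was at 1167 and 1313 CPM (log2 ratio 0.17, 0.10 to 0.24) and Mfap5 at 1849 and 1530 CPM (-0.27). Fbln2 was at 625 and 450 CPM (-0.47), Emilin1 at 77.4 and 67.3 CPM (-0.20, -0.52 to 0.10) and Lox at 223 and 197 CPM (-0.18, -0.36 to -0.00). The scaffold genes Fbn1 and Mfap5 and the cross-linking gene Lox therefore stayed within 1.5-fold in the class as a whole, unlike Eln. Fbln5 passed the fold narrowly: with sums scaled by the median of ratios it was at -0.54, and without cells holding a UMI of Fmod or Wisp2 at -0.16.

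The makeup of the fibroblast-like class differed between the libraries as well. The Fmod set held 88 ND cells but 7 HFD cells, and the Pi16 set 460 of 970 ND and 267 of 407 HFD cells. Another 269 ND and 57 HFD cells belonged to no set. After thinning, ND cells of no set had a mean of 3.6 Eln UMIs, against 1.03 in the Pi16, 1.66 in the Inmt and 4.12 in the Fmod set. HFD cells of no set had a mean of 0.33. Whether this makeup goes with the diet cannot be told from 1 library per diet. In fibroblast-like cells without a UMI of Fmod or Wisp2 the log2 ratio was -2.42 for Eln and -1.91 for Mfap4. Within the Pi16 set Eln was at 895 CPM (854 to 936) in ND and 167 CPM (146 to 190) in HFD cells, 5.36-fold lower (log2 ratio -2.42). The median cell of this set had 343 CPM of Eln in ND and 0 in HFD, and the highest cell 13240 and 2240 CPM. Mfap4 was at 341 and 55.1 CPM (log2 ratio -2.63), Fbln1 at 897 and 396 CPM (-1.18), Ltbp4 at 1637 and 798 CPM (-1.04) and Fbln2 at 918 and 489 CPM (-0.91). Fbn1 stayed at 1845 and 1691 CPM (-0.13), and Lox was at 128 and 185 CPM (0.53, 0.28 to 0.79). Mfap5 lay just within 1.5-fold at a log2 ratio of -0.56, Fbln5 was at -0.28 and Emilin1 at 0.02. Of 10 genes 5 were thus lower and 0 higher by 1.5-fold in the Pi16 set, where 11.5% of 4564 genes were lower and 3.51% higher.

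In the Inmt set Eln was at 1908 CPM in ND and 201 CPM in HFD cells, a log2 ratio of -3.25 (-3.76 to -2.78). Mfap4 was at 633 and 233 CPM (-1.45) and Fbln1 at 1206 and 793 CPM (-0.61). Fbln2 went the other way, at 285 and 465 CPM (0.71, 0.31 to 1.10). Of 9 genes with enough UMIs 3 were lower and 1 was higher, and over 860 genes 17.9% were lower and 8.6% higher. In the 7 HFD cells of the Fmod set Eln was at 549 CPM (283 to 958), against 3813 CPM in ND cells, while Mfap4 was at 1646 CPM against 1858 CPM with overlapping intervals. A set formed by Cxcl14 held 16 ND and 23 HFD cells, with 6 and 3 Eln UMIs (74.9 and 30.6 CPM, with overlapping intervals), and none of its cells had an Eln UMI after thinning. Eln was thus lower by 1.5-fold in HFD cells of the Pi16 and Inmt sets and, with intervals apart, in the few cells of the Fmod set. Mfap4 was lower in the Pi16 and Inmt sets.

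RNA quality and markers also moved with the library in the fibroblast-like class. The class's own markers summed to 16496 CPM in ND and 11537 CPM in HFD cells with none at 0, with Col1a1 at 2895 and 1201 CPM but Pdgfra at 373 and 418 CPM. Of the fibroblast-like cells 820 of 970 in ND and 135 of 407 in HFD had at most 20% mitochondrial UMIs, and these cells gave a log2 ratio of -3.27 for Eln and -3.28 for Mfap4. Under this filter 399 of the ND and 111 of the HFD cells were of the Pi16 set, so the makeup differed too. Within the Pi16 set the Eln ratio ran from -2.57 to -2.11 over the alternative settings. Smooth muscle markers summed to 169 CPM in ND and 101.5 CPM in HFD fibroblast-like cells, with none of the 6 at 0 in ND and 1 at 0 in HFD cells. Endothelial markers summed to 84.8 and 116 CPM with none at 0, and Cytl1, a gate gene of the luminal set, was at 89.2 and 3.26 CPM. In the ND Fmod set Cytl1 was at 293 CPM, while the endothelial markers summed to 44.4 CPM there with 1 at 0 and Vwf was at 2.96 CPM. The part of these markers in the Eln difference was not tested. In macrophage-like cells Eln was at 30.8 CPM in ND and 5.81 CPM in HFD cells.

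**Figure D2:**
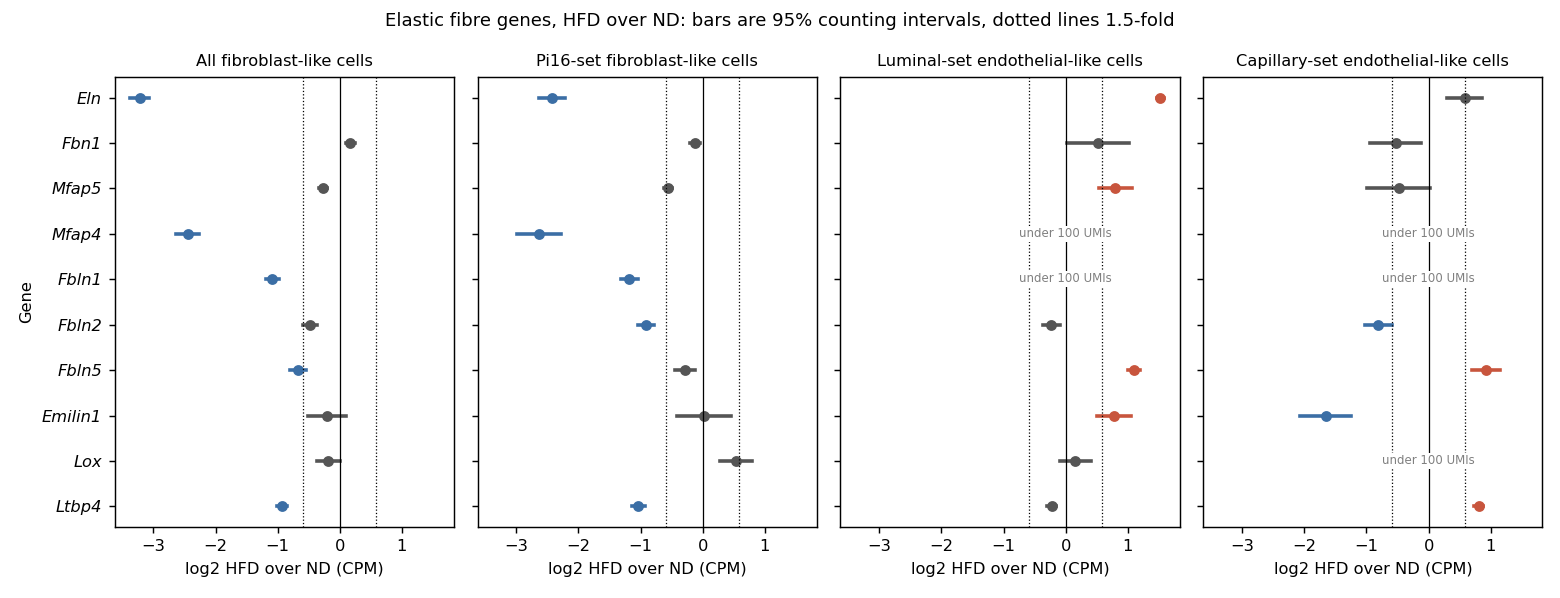
Log2 ratio of HFD over ND CPM (horizontal axis) for each of the 10 genes in 4 groups of gated cells, with bars for the 95% counting interval, dotted lines at 1.5-fold, and blue and red for genes lower and higher by at least 1.5-fold. Eln lies at -3.22 in fibroblast-like and at 1.53 in luminal-set cells, and genes with under 100 UMIs are left blank.

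In the GENCODE M21 annotation of GRCm38, the build of the counts, Eln (ENSMUSG00000029675) lies at chr5:134702593-134747323 on the minus strand. Fbn1 (ENSMUSG00000027204) lies at chr2:125300594-125507993 on the minus strand, Fbln1 (ENSMUSG00000006369) at chr15:85205949-85286535 on the plus strand and Fbln5 (ENSMUSG00000021186) at chr12:101746565-101819055 on the minus strand. Mfap4 (ENSMUSG00000042436) lies at chr11:61485431-61488900 and Mfap5 (ENSMUSG00000030116) at chr6:122505845-122529290, both on the plus strand. Fbln2 (ENSMUSG00000064080) lies at chr6:91212455-91272540 and Emilin1 (ENSMUSG00000029163) at chr5:30913402-30921277, both on the plus strand, and Ltbp4 (ENSMUSG00000040488) at chr7:27305136-27337692 on the minus strand. None of the 10 overlaps another gene on its own strand. On the other strand Eln overlaps Gm30003, Fbn1 overlaps Gm9913, Mfap4 overlaps Mapk7 and Lox overlaps AC161119.1.

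Promoter windows are shown for Fbln1, Fbln5 and Ltbp4, as the sequence next to the start of transcription. Each was lower by at least 1.5-fold in HFD fibroblast-like cells, Fbln5 only narrowly. They are the genes with a window that overlaps no annotated exon, and Eln and Mfap4 had no window. RefSeq (GRCm38.p6) gave windows for 6 of the 10 genes and 10 windows in all, of which 3 overlap no annotated exon. Each line gives the 250 bases before the start, 5′ to 3′ on the gene's strand, with capitals for matches of any of 3 motifs on either strand: the GC box GGGCGG, the AP-1 site TGANTCA, and CAGACA, which holds the core that Smad proteins bind. The windows are chr15:85205699-85205948 on the plus strand for Fbln1, chr12:101819120-101819369 on the minus strand for Fbln5 and chr7:27333664-27333913 on the minus strand for Ltbp4.
Fbln1: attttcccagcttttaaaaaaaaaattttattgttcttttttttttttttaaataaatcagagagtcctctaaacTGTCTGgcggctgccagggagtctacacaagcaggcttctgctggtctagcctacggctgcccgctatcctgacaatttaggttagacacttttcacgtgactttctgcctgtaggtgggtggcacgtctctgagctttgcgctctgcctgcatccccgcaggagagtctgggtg
Fbln5: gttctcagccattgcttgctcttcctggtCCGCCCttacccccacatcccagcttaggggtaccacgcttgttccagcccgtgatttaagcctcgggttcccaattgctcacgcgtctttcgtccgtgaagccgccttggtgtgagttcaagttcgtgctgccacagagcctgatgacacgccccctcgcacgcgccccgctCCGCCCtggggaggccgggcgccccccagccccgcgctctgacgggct
Ltbp4: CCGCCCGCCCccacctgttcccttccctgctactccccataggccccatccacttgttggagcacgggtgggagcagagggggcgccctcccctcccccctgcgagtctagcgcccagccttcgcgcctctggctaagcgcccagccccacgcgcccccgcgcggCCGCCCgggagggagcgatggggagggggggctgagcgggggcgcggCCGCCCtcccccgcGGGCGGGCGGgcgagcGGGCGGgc
The Fbln1 window holds 1 match to CAGACA and none to the others, the Fbln5 window 2 GC boxes, and the Ltbp4 window 7 GC boxes, of which some overlap each other. Of all 32851 windows of this length, 32.7% hold the GC box, 17.1% CAGACA and 6.75% the AP-1 site. The GC content is 46.4% for Fbln1, 65.2% for Fbln5 and 79.2% for Ltbp4, the last above 98.4% of all windows. The Ltbp4 window lies within the span of the longer gene, before an internal start. Windows at other starts of these genes, which overlap exons, hold other matches, a GC box for Fbln1 and CAGACA for Fbln5. A match describes letters only.

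Luminal-set cells had more Eln in the HFD library, opposite to the fibroblast-like cells. The level was 1938 CPM in ND and 5580 CPM (5438 to 5724) in HFD cells, a log2 ratio of 1.53 (1.47 to 1.58) or 2.88-fold higher. In order of this ratio Eln was number 26 from the highest of 4349 genes, and Fbln5 was number 73. Fbln5 was at 786 CPM in ND and 1685 CPM in HFD cells (1.10), Mfap5 at 131 and 227 CPM (0.80) and Emilin1 at 116 and 200 CPM (0.78). These 4 genes were higher by at least 1.5-fold, of 8 with enough UMIs, and none was lower. Mfap5 came to 0.49 with at most 1 marker of any other class, and Emilin1 to 0.57 without cells holding smooth muscle markers, both within 1.5-fold. Over all 4349 genes 7.66% were higher and 9.34% lower, and the median log2 ratio was 0.65 over the 8 genes against -0.01 over all.

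The Eln difference between luminal-set cells was smaller in the median cell than in the sum. The median cell had 1744 CPM of Eln in ND and 2080 CPM in HFD, a log2 ratio of 0.25, while the highest cell had 11358 and 38595 CPM. The 10% of cells with the most Eln held 35.2% of the Eln UMIs in ND (24 cells) and 53.0% in HFD (11 cells), and 1 HFD cell alone held 686 UMIs. After thinning each cell to 1000 UMIs, which left out 1 ND cell, 74.0% of ND and 78.5% of HFD luminal-set cells had an Eln UMI, with means of 1.98 and 5.78 and highest values of 11 and 56 UMIs per cell. Unthinned, these shares were 95.3% and 98.1% at median depths of 6332 and 7669 UMIs, against 2.79% of ND B cell-like cells at 3480.5 UMIs. The HFD luminal set thus held some cells with far more Eln than any ND luminal-set cell, while the lower quartile was 776 CPM in ND and 855 CPM in HFD cells. The highest ND fibroblast-like cell had 33808 CPM.

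Fbln5 differed in the middle of the distribution as well, with 375 CPM in the median ND cell and 785 CPM in the median HFD cell. Its share of cells with a UMI after thinning was 34.6% in ND and 60.7% in HFD cells. Across thinned luminal-set cells, Fbln5 had the highest Spearman's rho with Eln in the HFD library, at 0.53 over 107 cells, among 418 genes with a UMI in at least 25% of the cells. In ND cells it came after Bgn, at 0.27 over 231 cells among 430 genes. Bgn, a small proteoglycan of the matrix, was at 0.33 in ND and 0.30 in HFD cells. In HFD cells Mgp (0.35) and Sparc (0.32), genes of secreted matrix proteins, followed Fbln5. These are medians of 20 draws, and cells of 1 library share its depth and preparation.

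**Figure D3:**
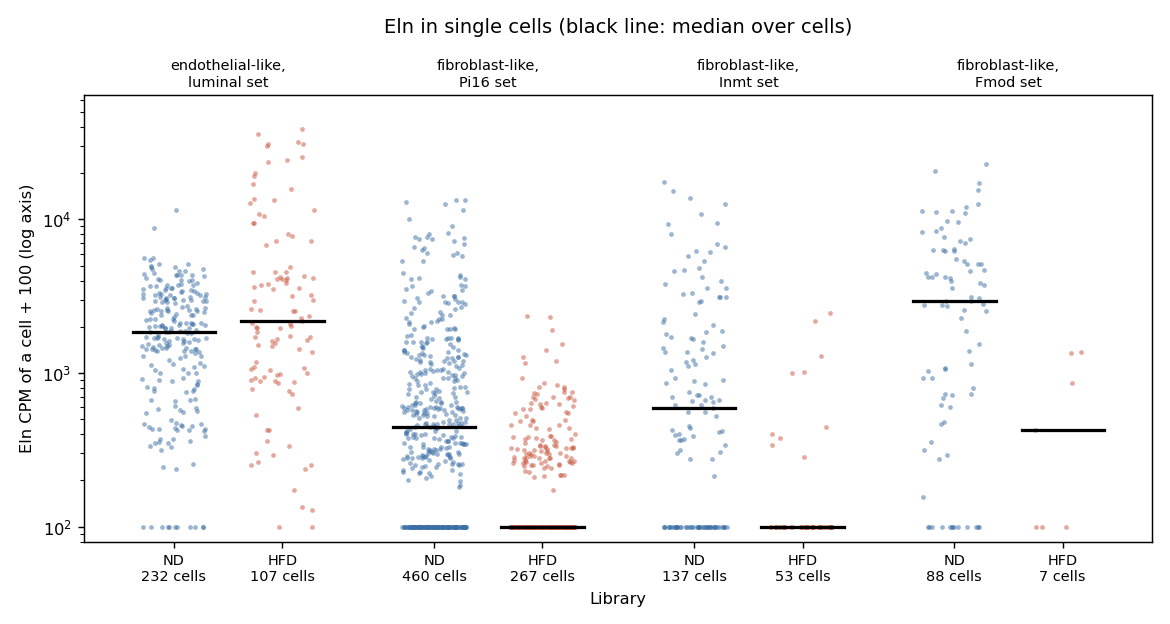
Eln CPM of each cell plus 100, on a log axis, for luminal-set endothelial-like cells and 3 sets of fibroblast-like cells, with 1 point per cell in blue for ND and red for HFD and a black line at the median over cells. The HFD luminal set reaches 38595 CPM although its median, 2080 CPM, is near that of the ND cells, 1744 CPM, and the medians of the Pi16 and Inmt sets lie at 0 in HFD cells.

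The other luminal-set genes lay within 1.5-fold. Lox was at 188 and 209 CPM (0.16, -0.09 to 0.40), Fbn1 at 40.3 and 57.8 CPM (0.52, 0.01 to 1.02), Fbln2 at 699 and 596 CPM (-0.23) and Ltbp4 at 2353 and 2010 CPM (-0.23). Fbln1, with 11 and 2 UMIs, and Mfap4, with 2 and 0 UMIs, were near 0 in both libraries, and the exact interval of the count of 0 reaches 3.50 CPM. Markers of other cells in this set were also summed. Smooth muscle markers came to 411 CPM in ND and 521 CPM in HFD cells, mostly Acta2 and Tagln, while Myh11 had 1 UMI in each library. Fibroblast markers came to 1286 and 748 CPM, mostly Dcn, at 1126 and 628 CPM. Other genes of fibroblasts went the other way in these cells, with Col3a1 at 36.7 and 165 CPM and Pi16 at 127 and 281 CPM. The 106 ND and 50 HFD cells with no smooth muscle marker gave an Eln log2 ratio of 1.70, and the 105 and 36 cells with no fibroblast marker 0.97. A gate that allowed no more than 1 marker of any other class left 121 and 53 cells and a ratio of 0.85. The part of these markers in the difference was not tested further.

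In the capillary set, which held most endothelial-like cells, the picture was again different. Ltbp4, with the highest level above that of B cell-like cells there, was at 268 CPM in ND and 468 CPM in HFD cells (0.81, 0.73 to 0.88). Fbln5 was at 30.6 and 58.3 CPM (0.93, and 0.54 with at most 50% mitochondrial UMIs), and Eln at 21.8 and 32.6 CPM (0.58, 0.30 to 0.86), just within 1.5-fold. Emilin1 was lower, at 30.0 and 9.56 CPM (-1.65, -2.07 to -1.25), and so was Fbln2, at 63.7 and 36.4 CPM (-0.81), which came to -0.52 with at most 1 marker of any other class. For comparison, ND B cell-like cells had 35.0 CPM of Eln and 1.79 CPM of Emilin1. HFD T cell-like cells had 8.93 CPM of each gene, from 2 UMIs each. HFD macrophage-like cells had 5.81 CPM of Eln and 16.3 CPM of Emilin1, so the background differed between the libraries. Of 7 genes with enough UMIs 2 were higher and 2 lower, and over 8740 genes 4.76% were higher and 15.2% lower. Emilin1 thus differed in opposite directions in the luminal and the capillary set, and Ltbp4 in the capillary set and in fibroblast-like cells. Over fibroblast-like, luminal-set, capillary-set and macrophage-like cells, 4 of the 8 genes with enough UMIs in at least 2 of these groups were higher in one and lower in another by 1.5-fold, as were 3.34% of 6859 genes. Whether these directions differ was not tested.

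Other classes had few cells or few UMIs of these genes. In smooth muscle-like cells, which bore 3735 CPM of Myh11 in ND and 1201 CPM in HFD, Eln was at 1658 CPM (1456 to 1881) in 22 ND cells and 2474 CPM (2119 to 2872) in 7 HFD cells, a log2 ratio of 0.58. A single HFD cell held 64.7% of the HFD UMIs. Col1a1, a fibroblast marker, was at 178 CPM in these ND cells and 8310 CPM in these HFD cells, and its part in the values was not tested. Lox had 6 ND and 39 HFD UMIs in these cells, of which 79.5% of the HFD UMIs came from 1 cell. In mesothelial-like cells Fbln2 was at 203 and 581 CPM (1.52), Fbln1 at 647 and 860 CPM (0.41), Ltbp4 at 622 and 924 CPM (0.57) and Eln at 285 and 167 CPM (-0.77), over 27 and 21 cells. The fibroblast markers of these mesothelial-like cells summed to 2332 CPM in ND and 6585 CPM in HFD, with 0 and 1 of the 6 at 0 and Dcn at 2094 and 6195 CPM, while the mesothelial markers summed to 4031 and 6920 CPM. Their part in these values, and in the order of the classes in the HFD library, was not tested. In macrophage-like cells only Ltbp4 passed 100 UMIs, at 43.7 and 13.8 CPM (-1.66), against 43.4 CPM in ND T cell-like cells.

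The share of each gene's UMIs held by each class shows where its RNA was counted, a measure that joins the number of cells with their levels. Fewer cells and less RNA per cell cannot be told apart in it. Of all Eln UMIs fibroblast-like cells held 51.7% in ND and 3.50% in HFD, while luminal-set cells held 28.1% and 58.2%. Unassigned cells held 13.3% and 32.9%, and of these UMIs 92.2% and 94.8% came from barcodes with at least 3 markers of 2 or more classes. Over all kept cells Eln was at 498 CPM in ND and 589 CPM in HFD. For Fbln5 the fibroblast-like share was 43.7% and 17.7% and the luminal share 28.5% and 45.1%. Fbn1 stayed mostly in fibroblast-like cells, at 84.5% and 75.4%, as did Mfap5 at 84.8% and 75.6%. Over all kept cells Mfap4 was at 116 and 19.2 CPM.

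**Figure D4:**
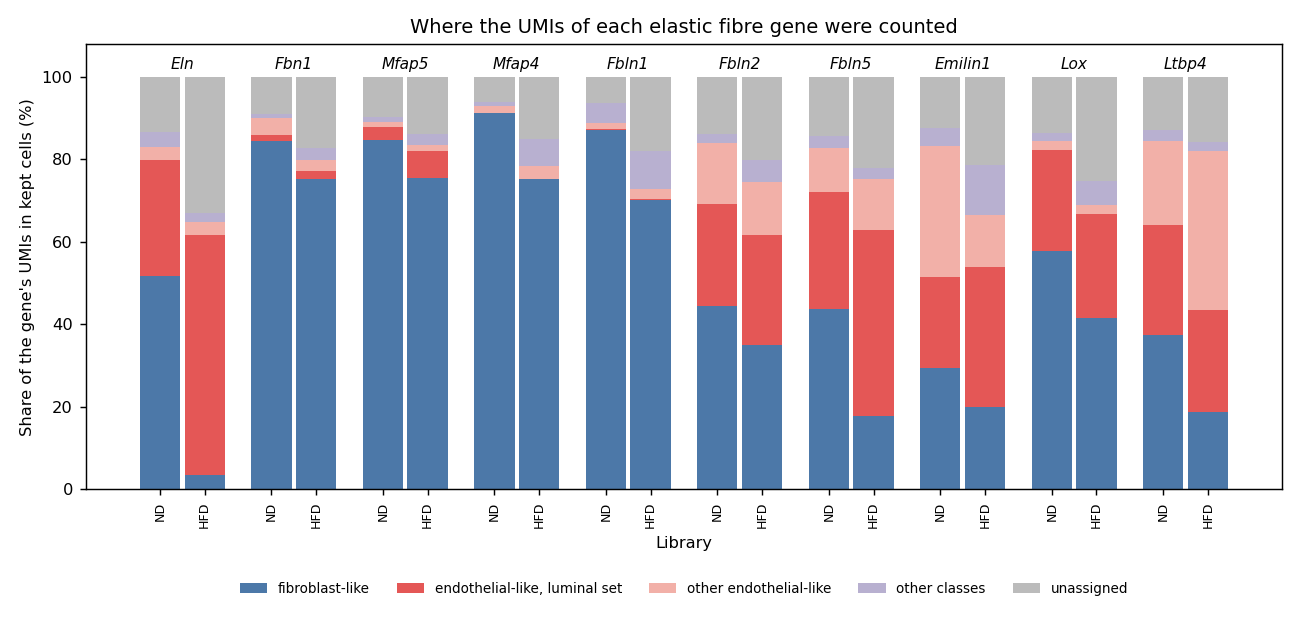
Share of each gene's UMIs (percent of all its UMIs in kept cells, vertical axis) by gated cells, with 1 bar per library for each of the 10 genes and the colours named in the legend. For Eln the fibroblast-like share is 51.7% in ND and 3.50% in HFD, and the luminal-set share 28.1% and 58.2%.

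Other genes of the elastic fibre were taken from a list of 22 genes. In fibroblast-like cells 16 of them had enough UMIs, of which 6 were lower and 0 higher by 1.5-fold, where 13.1% of all genes were lower and 3.97% higher. Their median log2 ratio, -0.21, was close to that of all genes, -0.16. The lower ones were Adamtsl2, whose product binds latent TGF-beta binding proteins (79.2 and 8.14 CPM, log2 ratio -3.28), Ltbp2 (88.9 and 27.7 CPM, -1.68), Mfap2 (101.2 and 54.3 CPM, -0.90), Fbln7 (96.9 and 52.1 CPM, -0.89), Adamts10 (104 and 57.5 CPM, -0.85) and Ltbp3 (238 and 135 CPM, -0.82). In luminal-set cells 6 had enough UMIs, of which 2 were higher and 2 lower, where 7.66% of all genes were higher and 9.34% lower. Ltbp2 was higher there (35.2 and 132 CPM, 1.90), as was Bmp1, a protease that activates lysyl oxidases (31.1 and 81.5 CPM, 1.39), while Ltbp1 (79.05 and 37.9 CPM, -1.06) and Efemp1 (118 and 74.9 CPM, -0.65) were lower. Ltbp2 was thus lower in fibroblast-like and higher in luminal-set cells, as Eln was.

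Of 8 enzymes that can degrade elastin, 4 had enough UMIs in fibroblast-like cells and 0 passed 1.5-fold. In luminal-set cells 3 of 4 were higher, where 7.66% of all genes were: Mmp2 (112 and 257 CPM, 1.19), Mmp14, which activates Mmp2 (28.05 and 69.2 CPM, 1.30), and Ctss (30.1 and 52.1 CPM, 0.79). Of 6 inhibitors of such enzymes, 5 had enough UMIs in fibroblast-like cells, of which 1 was higher and 2 were lower, against the shares of all genes given above. In luminal-set cells 1 of 3 was lower. In smooth muscle-like cells 1 of 3 was higher and 2 were lower, where 28.8% of 288 genes were higher and 26% lower. This class held 22 ND and only 7 HFD cells, and so large a share of all genes passed that its values below say little about these inhibitors. Timp3 was lower in fibroblast-like (2038 and 740.1 CPM, -1.46), luminal-set (2465 and 1599 CPM, -0.62) and smooth muscle-like cells (1768 and 872 CPM, -1.02). Cst3, an inhibitor of cysteine cathepsins, was lower in fibroblast-like (3940 and 1749 CPM, -1.17) and smooth muscle-like cells (1836 and 629 CPM, -1.55). Timp1 was higher in fibroblast-like cells (69.95 and 133 CPM, 0.93) and Timp2 in smooth muscle-like cells (404 and 615 CPM, 0.61).

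The genes most like each of the 10 were found by Pearson's r of log2(CPM + 10) over 15 class profiles of both libraries, among 10670 genes. Mgp, a matrix inhibitor of calcification, was most like Eln, at an r of 0.94, followed by Tmtc1 and Pdgfd at 0.90. For the microfibril genes, Pamr1 (0.95), Ndrg4 and Vcan were most like Fbn1, Tnxb (0.97), Antxr1 and Col1a2 most like Mfap5, and Ptgfr (0.99), Tspan11 and Myoc most like Mfap4. Among the fibulins, Ces2g (0.97), B3gnt9 and Medag were most like Fbln1, Sntb2 (0.95), Pkd2 and Cd34 most like Fbln2, and Rhoj (0.97), Armcx1 and Cavin3 most like Fbln5. Gas8 (0.95), Osbpl6 and Tmem45a were most like Emilin1. Col5a2 (0.97), Calu and Col5a1 were most like Lox, and both Col5 genes encode chains of a fibrillar collagen. P4ha2 (0.97), a subunit of the enzyme that hydroxylates prolines of collagen, and Armcx1 were among those most like Ltbp4. Mgp itself was at 5073 CPM in ND and 910.5 CPM in HFD fibroblast-like cells and at 3355 and 7220 CPM in luminal-set cells. The profiles come from 2 libraries and share their cells' depth, and r is given as a description.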

How the data were processed

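Dissociated cells of the aortic arch were captured with 10x Genomics reagents and sequenced on a HiSeq3000. The authors made UMI counts per gene and barcode with Cell Ranger (software version 3.0.1 in the deposited headers) on mm10 and deposited them unnormalized. Their notes also name bcl2fastq, UMI-tools, Seurat 3.2.0 and R 4.0.0 for later steps. Counts of both libraries joined were also deposited and were not used here.

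Kept were barcodes with no fewer than 200 genes and 200 UMIs whose mitochondrial share did not pass 30%. A cell joined a class with at least 3 of its 6 markers and at least 2 more markers than any other class had. The lists were Pecam1, Cdh5, Kdr, Egfl7, Cldn5 and Tie1 (endothelial), Pdgfra, Dcn, Lum, Dpt, Col1a1 and Serpinf1 (fibroblast), Myh11, Acta2, Tagln, Cnn1, Lmod1 and Smtn (smooth muscle), and like lists for the other 9 of 12 classes. A cell joined a set with at least 2 UMIs of the set's genes and at least 2 times those of any other set. UMIs were summed per group of cells and library and divided by all UMIs of those cells (CPM).

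With 1 library per diet nothing was tested. A gene counted as higher or lower at 1.5-fold, a log2 ratio of 0.58, where both libraries summed to 100 UMIs or more. Intervals are exact: Poisson for CPM, Clopper-Pearson for shares, conditional binomial for ratios. By rule were named all 10 genes, genes of the 3 other lists past 1.5-fold in fibroblast-like, smooth muscle-like or luminal-set cells, and for each of the 10 the 3 most alike genes outside the lists and markers, of which 1 is not reported here. Names beyond this rule, among them the genes that move with Eln across cells, were chosen after their values were seen. The 10 genes and the lists were chosen with earlier results of these data known. Doublets were not removed: the Scrublet caller in scanpy 1.11.5 marked 0 ND cells and 1 HFD cell by its own threshold, too few to have worked, so the highest 6% of scores were left out as an alternative. Python 3.11.15, numpy 2.4.6, scipy 1.17.1 and pandas 2.3.3 were used, with matplotlib 3.10.9 for figures, GENCODE M21 for positions and RefSeq for promoter windows.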

Additional observations from a re-analysis of the deposited data

Results flagged for a closer look

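Of the 10 genes 4 differed between the libraries by at least 1.5-fold in opposite directions in different cells, and whether the directions differ was not tested. Enough UMIs in at least 2 of the 4 groups of cells compared were had by 8 of the 10 genes, and over all 6859 such genes 3.34% differed in this way. Eln had a log2 ratio of HFD over ND of -3.22 in fibroblast-like and 1.53 in luminal-set endothelial-like cells. Fbln5 was at -0.67 in fibroblast-like cells, 1.10 in luminal-set and 0.93 in capillary-set endothelial-like cells. Emilin1 was at 0.78 in luminal-set and -1.65 in capillary-set cells. Ltbp4 was at -0.93 in fibroblast-like, 0.81 in capillary-set and -1.66 in macrophage-like cells, where its level in both libraries lay near or under that of T cell-like cells.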

How the results depend on the processing

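No paired analysis was possible because each diet has 1 library. Values were recomputed under 13 alternatives of gate, filter, scaling and fold and 6 more chosen after the data had been seen, and no value past 1.5-fold changed direction. For Eln in fibroblast-like cells the log2 ratio of -3.22 moved to -2.99 with at most 1 marker of any other class, -3.00 with at most 50% mitochondrial UMIs, -3.03 scaled without mitochondrial, haemoglobin and ribosomal genes and -2.42 without cells holding Fmod or Wisp2. For Eln in luminal-set cells the ratio of 1.53 moved to 0.85, 1.45, 1.69, 1.65, 1.70, 0.97 and 0.25, in this order with at most 1 marker of any other class, with at most 50% mitochondrial UMIs, without the highest 6% of doublet scores, with Cytl1 alone as the gate, without cells holding smooth muscle markers, without cells holding fibroblast markers, and as the ratio of medians over cells. The cause was not tested. At 2-fold, 3 genes were lower in fibroblast-like cells, 2 higher in the luminal set, and 0 higher and 1 lower in the capillary set. By medians over cells, 2 genes were lower in fibroblast-like cells, 3 lower in the Pi16 set, 2 higher in the luminal set, and 1 higher and 0 lower in the capillary set, where genes with a median of 0 give no ratio. In the capillary set 1 gene was lower with at most 1 marker of any other class and 1 was higher with at most 50% mitochondrial UMIs. The other counts stayed within 1.5 times their values, among them the number of genes highest in HFD fibroblast-like cells, from 6 to 9. Scaling by the median of ratios took out a median ratio of all genes of -0.14 in fibroblast-like, -0.16 in Pi16-set, 0.03 in luminal-set and -0.16 in capillary-set cells. In fibroblast-like cells the sign of genes within 1.5-fold was not stable, with Fbn1 from -0.05 to 0.50, Lox from -0.41 to 0.55 and Emilin1 from -0.35 to 0.16. Of 495 further ratios of single genes, 412 stayed within their counting intervals, 83 moved beyond them and 0 of those past 1.5-fold reversed. Settings that change only the fold or the minimum of UMIs cannot move a ratio. Their ratios are counted among those that stayed, so 412 overstates how far the ratios were put to the proof. Depth limits the genes with fewer than 100 UMIs, such as Fbln1 and Mfap4 in the luminal set, and no setting supplies the spread between mice.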

Other observations

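Unassigned barcodes carried much Eln in the HFD library. All 646 ND unassigned cells were at 373 CPM of Eln and all 464 HFD ones at 1060 CPM. Barcodes with at least 3 markers of both the endothelial and the smooth muscle list were at 1744 CPM (44 ND cells) and 2149 CPM (27 HFD cells), and those with both endothelial and fibroblast markers at 553 CPM (51 ND cells) and 1976 CPM (55 HFD cells). Barcodes with 3 markers of no class were at 49.8 CPM (292 ND cells) and 8.44 CPM (170 HFD cells). Of the unassigned cells 23.4% in ND and 17.7% in HFD lay among the highest 6% of doublet scores, against 3.51% and 2.46% of fibroblast-like and 8.19% and 13.1% of luminal-set cells.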
